A study of Mus musculus with 6 samples.

Results

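The major histone gene cluster of the mouse was taken as chr13:21700000-23800000 of the GRCm38 genome, and its members were all CpG cytosines in that range that were listed in each of the 6 libraries. There were 1619 such cytosines of 2210988 in the genome, and 1618 remained once the top 0.1% of coverage in any library was set aside. They fell in 179 tiles of 500 bp, of which 135 held at least 3 cytosines and were used below. DNA methylation was read by reduced representation bisulfite sequencing (RRBS), which sequences short restriction fragments rich in CpGs after bisulfite has turned unmethylated cytosines into thymines. The level of a cytosine is the percent of its reads that still show C. The DNA came from male germ cells of mice, in 3 Control libraries and 3 libraries from animals put through chronic social defeat stress (CSDS), that is repeated encounters with a dominant aggressor. The labels give no strain, genotype, age, length of exposure or germ cell stage and do not say whether each library is a separate animal, and p-values here rest on the spread among libraries alone, which may be technical.

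Histone proteins package DNA into nucleosomes, in which a core of H2A, H2B, H3 and H4 is sealed by a linker histone H1. The genes for the replication-dependent histones are short, lie close together, often as divergent pairs that share a promoter, and are transcribed in S phase into mRNAs without a poly(A) tail. The same stretch of DNA holds many tRNA genes and, between its blocks of histone genes, vomeronasal receptor genes that are used in pheromone-sensing neurons. Male germ cells also make testis histone variants, encoded by H1f6 (H1t), H2ac1 (TH2A) and H2bc1 (TH2B), before histones are replaced by transition proteins and protamines.

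Each library listed between 2420308 and 3156788 CpG cytosines at a median coverage of 44 to 50 reads. Median coverage over the cluster's cytosines was 58 reads. Outside the cluster the mean level was 43.2% in Control and 40.6% in CSDS. CSDS replicates 2 and 3 stood apart in mitochondrial DNA, where the median share of reads showing C was 4.41% and 4.53%, against 8.50% in CSDS replicate 1 and 8.84 to 10.04% in the 3 Control libraries. Results below are therefore given also for CSDS replicate 1 alone, without a test, and after each library's level was corrected for its mitochondrial share. The germ cell label was described by 2 imprinted regions. The H19 control region (4 cytosines), methylated on the paternal allele, averaged 97.9% in Control and 95.0% in CSDS. The Snrpn control region (23 cytosines), methylated on the maternal allele, read 28.5% and 16.9%. The purity of the germ cells was not tested. Windows of 7 of 8 germline genes were measured, and their medians were 21.9% (Control) and 18.5% (CSDS). The 5 Sertoli cell markers had medians of 19.2% and 16.4%, 3 of 4 Leydig cell markers 65.1% and 61.2%, and neither of the 2 immune markers was measured.

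Cytosines in the sequence CCGG often read unlike their neighbours, which could be examined only for members that lie in promoter sequences. CCGG is the recognition sequence of MspI, an enzyme widely used for RRBS. The labels name the library kit and not the enzyme. The promoter sequences of H1f5 (chr13:21780576-21780875, - strand) and Zfp184 (chr13:21944844-21945143, + strand) are shown because single cytosines there are listed on both strands at very unlike levels. That of H1f6 (chr13:23695561-23695860, + strand) is shown because it is the only testis histone gene in the range and no cytosine near it was listed in any library. That of H2bc1 (chr13:23934107-23934406, - strand), a testis histone gene that lies beyond the upper bound, is shown as its comparator. Sequences are RefSeq's for GRCm38.p6, 250 bases before to 50 bases after the annotated start, 5′ to 3′ on the gene's strand, with each CCGG in capitals.
H1f5: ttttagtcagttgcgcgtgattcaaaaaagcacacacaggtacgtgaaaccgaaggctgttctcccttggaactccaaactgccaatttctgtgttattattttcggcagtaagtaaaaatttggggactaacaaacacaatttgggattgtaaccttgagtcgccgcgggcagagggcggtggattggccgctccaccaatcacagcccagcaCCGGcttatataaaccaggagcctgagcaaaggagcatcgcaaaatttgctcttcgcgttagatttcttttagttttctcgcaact
H1f6: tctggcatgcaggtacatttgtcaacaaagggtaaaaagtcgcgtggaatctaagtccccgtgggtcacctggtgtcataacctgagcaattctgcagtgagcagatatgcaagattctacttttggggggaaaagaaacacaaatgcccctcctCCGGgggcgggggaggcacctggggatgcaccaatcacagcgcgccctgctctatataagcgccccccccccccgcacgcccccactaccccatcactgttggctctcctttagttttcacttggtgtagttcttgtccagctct
H2bc1: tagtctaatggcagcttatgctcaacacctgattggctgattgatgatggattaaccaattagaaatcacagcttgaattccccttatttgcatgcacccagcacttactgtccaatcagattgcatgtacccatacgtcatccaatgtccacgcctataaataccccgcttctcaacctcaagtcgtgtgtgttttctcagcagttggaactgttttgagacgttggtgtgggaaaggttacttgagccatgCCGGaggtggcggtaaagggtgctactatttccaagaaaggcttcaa
Zfp184: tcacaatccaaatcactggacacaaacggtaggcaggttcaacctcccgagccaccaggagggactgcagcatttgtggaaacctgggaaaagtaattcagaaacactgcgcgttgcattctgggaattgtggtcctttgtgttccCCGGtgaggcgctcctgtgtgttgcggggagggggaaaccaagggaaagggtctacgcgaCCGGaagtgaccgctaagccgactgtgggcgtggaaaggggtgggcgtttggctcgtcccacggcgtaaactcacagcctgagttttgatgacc

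In the H1f5 promoter the only CCGG lies 34 bp before the start. Its cytosine on the + strand was read as 100% methylated in all 6 libraries, at a coverage of 13 to 33 reads. The cytosine opposite it, on the - strand, was read at 12.6%, 8.11% and 11.3% in Control and at 3.28%, 5.07% and 7.02% in CSDS, at a coverage of 37 to 138 reads. So the strands of this one CpG disagreed in every library, while the CSDS libraries lay below the Control libraries on the - strand alone. In the Zfp184 promoter the CCGG nearer the start has its + strand cytosine 43 bp before it, and that cytosine read 89.1%, 98.5% and 97.7% in Control and 82.5%, 57.1% and 63.3% in CSDS. Its partner on the - strand stayed between 0 and 15.4% in the 6 libraries. The other CCGG of that promoter, listed on the + strand only, read 2.11 to 11.9%. The 3 listed cytosines of the H2bc1 promoter, 1 of them in its CCGG, read between 3.70% and 23.9%.

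**Figure D1:**
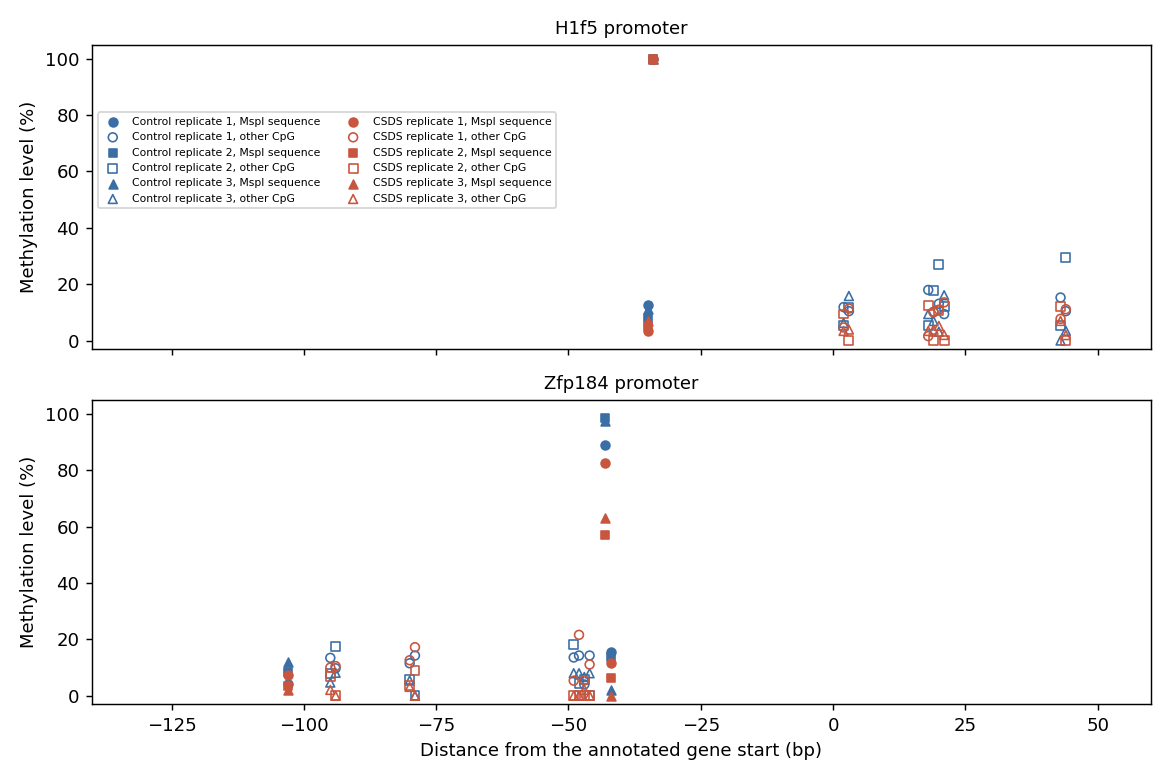
Methylation level (percent of reads showing C) of each listed cytosine in the promoters of H1f5 and Zfp184 against its distance from the annotated gene start in bp. Each symbol is 1 library (blue Control, red CSDS), filled where the cytosine lies in the MspI recognition sequence. In each promoter 1 filled column stands far above all other cytosines, at 100% in every library for H1f5 and between 57.1% and 98.5% for Zfp184.

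This held across the cluster's promoters. The 48 member cytosines in a CCGG of a promoter sequence averaged 42.9% in Control and 37.4% in CSDS, against 9.71% and 5.56% for the 150 at other CpGs. Of the 42 CCGG cytosines listed on both strands, 28 lay over 20 points from their partner, against 2 of 144 at other CpGs. Genome-wide the same shares were 63.4% of 39512 and 0.0784% of 183770. In the whole range, where only promoter sequence was at hand, 1174 members were listed on both strands, and 222 of them lay over 20 points from their partner. The 952 others on both strands, called strand-concordant here, were used to recompute the levels, and the windows and tiles that held at least 3 of them, and the 444 listed on 1 strand could not be judged. The CCGG excess and the strand gap were present in Control and CSDS alike, and their origin was not tested.

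The cluster as a whole was less methylated than the rest of the genome. Its mean level was 33.1%, 33.3% and 32.9% in Control replicates 1 to 3 and 31.8%, 27.9% and 28.7% in CSDS replicates 1 to 3, the order in which libraries are given throughout. The groups did not overlap, and CSDS replicate 1 was the nearest to Control. The group means were 33.1% ± 0.202 (Control; SD, n = 3) and 29.4% ± 2.07 (CSDS; SD, n = 3). They differed by -3.62 points, for which the exact two-sided permutation p = 0.1 is the smallest that 3 against 3 allows. CSDS replicate 1 alone was at -1.27 points from the Control mean. The cluster minus the rest of the genome was -10.7 points on average and negative in 6 of 6 libraries (exact sign-flip permutation p = 0.03125, the smallest 6 libraries allow). That gap was -10.1, -10.1 and -10.2 points in Control and -10.8, -11.6 and -11.1 points in CSDS, so it was wider in each CSDS library. Its change was -1.02 points (exact permutation p = 0.1). Corrected for the mitochondrial share, the cluster read 26.2% in Control and 25.1% in CSDS (difference -1.13 points, exact permutation p = 0.2), and the gap changed by -0.67 points (exact permutation p = 0.1). With reads summed over cytosines in place of equal weights the gap changed by 0.564 points in the other direction (exact permutation p = 0.7).

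Levels differed along the region. Cytosines with at least 20 CpG cytosines within 100 bp (405 members) read 17.8% in Control, and those with at most 6 (416 members) 60.1%. The 500-bp tiles split into 52 under 20%, 45 between 20% and 80%, and 38 over 80%, so 38.5% were low against 19.1% of all 162810 tiles of the genome and 28.1% were high against 60.2%. Over strand-concordant cytosines few tiles were intermediate. Of 83 such tiles 55 were under 20%, 7 between 20% and 80%, and 21 over 80%. That is 66.3% low, against 32.3% of such tiles genome-wide, and 25.3% high, against 58.9%. Counts by block are over all listed cytosines. The stretch from the first to the last vomeronasal gene or pseudogene, chr13:22057168-23269501, held no tile under 20% and 21 of 29 tiles over 80%. Before it 4 of 41 tiles were over 80%, and after it 13 of 65. Its 243 cytosines had group means of 83.9% ± 1.04 (Control) and 82.4% ± 0.545 (CSDS), as SD over n = 3 libraries. The histone and tRNA blocks before and after it averaged 21.5% and 25.7% in Control and 17.2% and 21.8% in CSDS. The last tile with 3 cytosines below the lower bound read 90.6% in Control and the first inside it, near a glycine tRNA gene, 19.1%. At the upper bound the last tile inside, in Trim38, read 45.8% and the first outside, in Slc17a2, 94.3%.

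**Figure D2:**
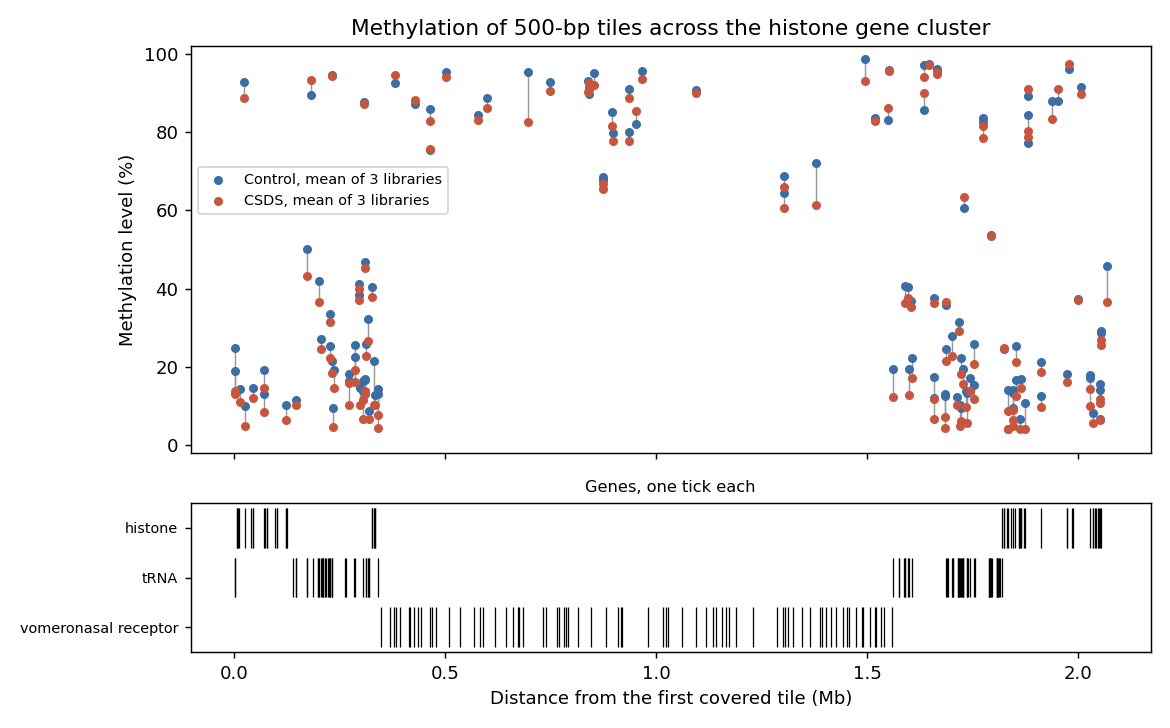
Mean level in percent of each of the 135 tiles of 500 bp (y axis) against distance from the first covered tile in Mb (x axis), with Control (blue) and CSDS (red) means of 3 libraries joined by a line, and below it 1 tick per histone, tRNA and vomeronasal receptor gene. Tiles under 20% lie in the histone and tRNA blocks at either end and none lies among the vomeronasal genes, where 21 of 29 are over 80%.

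Windows of histone genes, 500 bp either side of the start, were the least methylated class over all listed cytosines, though not over strand-concordant ones, where tRNA windows read 10.7% in Control and histone windows 10.9%. Their 429 cytosines averaged 15.3%, 15.1% and 14.05% in Control and 13.99%, 8.77% and 9.62% in CSDS. CSDS replicate 1 lay just under the lowest Control library and the other two CSDS libraries well under it. Group means were 14.8% ± 0.667 for Control and 10.8% ± 2.80 for CSDS (SD over n = 3). They differed by -4.02 points (exact permutation p = 0.1), and CSDS replicate 1 alone by -0.828 points. In every library the histone windows lay below the cluster's other cytosines, and the mean difference was -25.1 points (6 of 6 libraries, exact sign-flip permutation p = 0.03125). Those others include 610 cytosines outside all gene windows, at 56.4% in Control. Windows of tRNA genes and of other genes were nearer, at 20.9% and 23.9% in Control. The gap to all other cytosines changed by -0.549 points between the groups (exact permutation p = 0.6), and by -0.238 points without CSDS replicate 2 to -1.12 points without CSDS replicate 1. Corrected levels of the histone windows were 6.12% in Control and 5.30% in CSDS. Over the 216 strand-concordant cytosines Control and CSDS read 10.9% and 6.85%, and 1.84% and 1.11% once corrected as well. Control replicate 3 was then at -0.138%, which no true level can be, and the Control SD was 1.79 (n = 3). These corrected levels are therefore not precise.

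Of the 52 protein-coding histone genes in the range, 26 had a window with at least 3 cytosines and 26 had no cytosine listed in all libraries. Of the latter, 2 had a cytosine listed in at least 1 library. All 5 replication-dependent linker genes were measured, 4 of 12 H2A, 7 of 14 H2B, 6 of 9 H3 and 4 of 11 H4 genes. The 26 windows hold 23 distinct sets of cytosines, since the divergent pairs H2ac15 and H2bc15, H2ac7 and H2bc7, and H2ac6 and H2bc4 share theirs. A promoter sequence was at hand for 49 of the 52 genes, and at least 1 CCGG was in 10 of the 23 of measured genes and in 4 of the 26 of unmeasured ones, against 52.8% of all 32817 promoters. The box CCAAT, searched on both strands as CCAAT, was in 41 of the 49 (83.7%, against 37.4% of all promoters), and the TATA box, as TATAAA on both strands, in 29 (59.2% against 13.6%). The heptamer AAACACA, known from H1 promoters, was in 7 on either strand (14.3% against 7.19%), among them those of H1f2, H1f3, H1f4, H1f5 and H1f6.

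The linker genes, which encode the H1 proteins of dividing cells, had window levels from 13.7% to 29.3% in Control and 8.39% to 26.9% in CSDS. H1f5 (52 cytosines) read 16.7%, 17.1% and 14.4% in Control and 15.5%, 9.70% and 9.96% in CSDS. H1f3 (20 cytosines) read 16.1%, 15.2% and 9.80% in Control and 9.65%, 7.46% and 8.07% in CSDS. Over all listed cytosines H1f3 was the only linker window whose groups did not overlap, by a margin of less than 1 point, and its difference was -5.30 points (unadjusted quasi-binomial p = 0.032). H1f4 (51 cytosines) read 14.6%, 15.6% and 11.01% in Control and 16.1%, 7.96% and 9.38% in CSDS, so its highest library was CSDS replicate 1. H1f2 (18 cytosines) read 23.9%, 15.9% and 11.7% in Control and 13.1%, 5.74% and 11.7% in CSDS, the widest Control spread of the 5. H1f1 (8 cytosines) was the highest of the histone windows, at 27.5%, 29.2% and 31.1% in Control and 28.7%, 25.5% and 26.6% in CSDS. Over its 4 strand-concordant cytosines H1f1 read 7.27% in Control and 3.96% in CSDS, so it no longer stood out among the linker genes, which then ran from 7.27% to 14.6%. Over such cytosines 3 of the 5 linker windows, H1f1, H1f3 and H1f5, had all CSDS libraries below all Control libraries. Among all gene windows of the genome 32.5% had this over all listed cytosines, and no share over strand-concordant ones is at hand. After the mitochondrial correction H1f4 and H1f1 were 0.766 and 0.352 points higher in CSDS, and the other 3 stayed lower.

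Over all listed cytosines the core histone genes spanned a similar range, from 6.72% in H3c7 to 24.6% in H3c8 in Control. The windows of H3c8 and H2ac11 had only 5 and 6 cytosines listed in at least 1 library. Over strand-concordant cytosines 1 H2B window read 5.70% in Control, 3 H3 windows 6.74% to 10.7% and 3 H4 windows 9.99% to 18.1%. No H2A window was measured over such cytosines. H3c7 read 5.97%, 6.73% and 7.45% in Control and 6.37%, 2.08% and 1.60% in CSDS. H3c3 and H4c11 came next, at 8.29% ± 1.69 and 9.99% ± 5.83 in Control (SD, n = 3) and 5.68% ± 4.85 and 4.88% ± 2.81 in CSDS. The 3 lowest overlap each other between libraries and are not ordered beyond their spread. At the upper end H3c8 read 24.5%, 25.6% and 23.8% in Control and 25.6%, 21.6% and 27.0% in CSDS. It was the only one of the 26 windows with a higher mean in CSDS, by 0.106 points. H2ac11 read 21.5% ± 1.98 in Control and 18.6% ± 1.84 in CSDS (SD, n = 3). H4c9, the third highest, varied most between libraries, at 17.3%, 33.0% and 14.0% in Control and 18.98%, 4.71% and 7.11% in CSDS. Over all listed cytosines only H3c6 and H4c1 among the core genes had all CSDS libraries below all Control libraries. H3c6 read 19.7%, 20.2% and 21.0% in Control and 19.2%, 14.2% and 15.1% in CSDS. H4c1, the histone window with the most cytosines (72), read 14.9%, 14.5% and 14.4% in Control and 13.8%, 9.70% and 9.77% in CSDS.

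**Figure D3:**
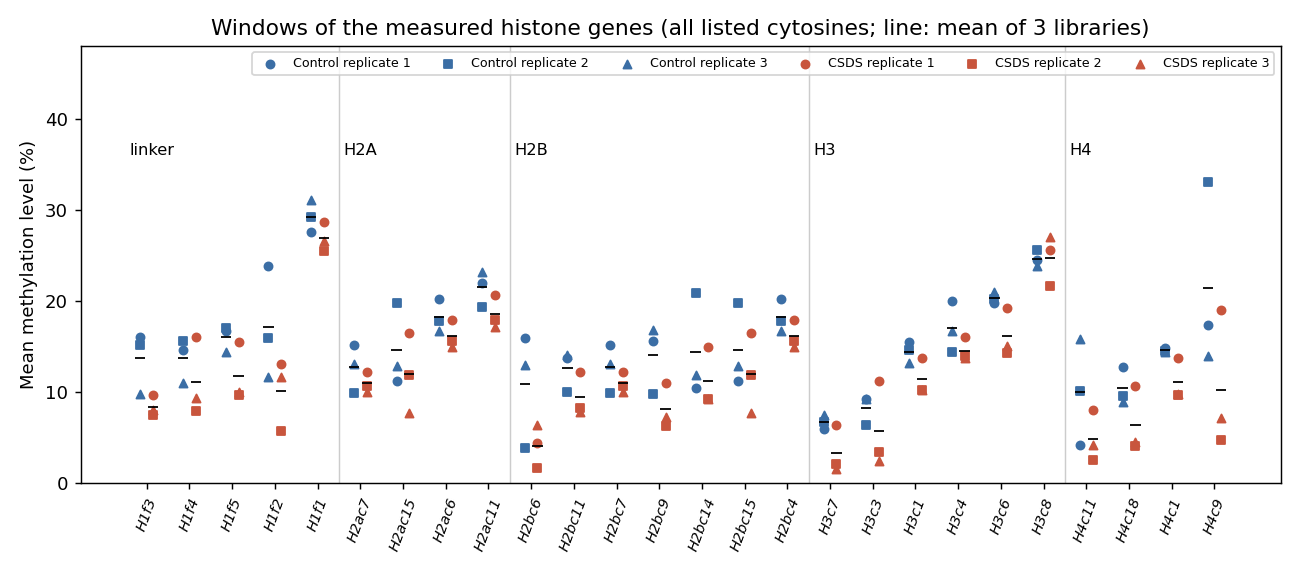
Mean level in percent (y axis) of the window of each of the 26 measured histone genes (x axis, by histone type and then by Control mean). Symbols are libraries (blue Control, red CSDS), and short lines are group means. Levels run mostly under 20%, CSDS replicate 1 (red circle) lies within the Control range in 20 of the 26, and H1f1, H3c8, H2ac11 and H4c9 are the highest in Control.

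Of the 26 histone windows, 25 had a lower mean in CSDS, with a median difference of -3.10 points. In 3 of them all CSDS libraries lay below all Control libraries. Among all 19645 gene windows of the genome, over all listed cytosines, 92.8% had a lower mean, with a median difference of -3.28 points. In 32.5% of those the groups did not overlap in that direction. Over strand-concordant cytosines, 5 of the 12 measured histone windows had no overlap in that direction. No share over all gene windows is at hand for that set, so the 5 cannot be set against the genome. In 19 of the 26 windows CSDS replicates 2 and 3 both lay below the lowest Control library, and in 20 CSDS replicate 1 lay within the Control range. By type, the median differences were -4.32 points for linker, -2.34 for H2A, -3.18 for H2B, -2.81 for H3 and -4.57 for H4 genes. After the mitochondrial correction the median over the 26 was 0.17 points and 10 were lower in CSDS. No value over all gene windows is at hand for the corrected levels or for the positions of single CSDS libraries. These counts thus cannot be set against the genome.

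The testis histone genes were compared next. H1f6, the testis linker histone, was not measurable here. H2ac1 and H2bc1 share 1 promoter region beyond the upper bound of the range and serve as comparators. Their 55 cytosines read 23.5%, 28.3% and 21.8% in Control and 22.99%, 15.8% and 16.5% in CSDS, and CSDS replicate 1 lay within the Control range. The group difference was -6.14 points (exact permutation p = 0.2). In every library they lay above the replication-dependent windows, by 8.67 ± 2.34 points (SD, n = 6; 6 of 6 libraries, exact sign-flip permutation p = 0.03125). Over strand-concordant cytosines the gap was 8.37 points, and 9.09 points once corrected, both with all 6 libraries above 0 (exact permutation p = 0.03125). The gap changed by -2.11 points in CSDS (exact permutation p = 0.3), and leaving out 1 library moved this change to between -0.394 points (without Control replicate 2) and -3.11 points (without Control replicate 3). Since testis genes have 55 cytosines in 1 place and the histone windows 429 in many, the gap describes that locus.

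Transfer RNA genes, transcribed by RNA polymerase III, made up the second covered family, with 29 of 79 measured. Their windows held 362 cytosines at 20.9% in Control and 16.6% in CSDS on average, and single windows ran from 8.79% to 53.7% in Control. The 3 lowest were n-TIaat7, n-TAagc13 and n-TIaat11, at 8.79%, 9.67% and 11.6% in Control. The 3 highest were n-TRtcg3, n-TIaat10 and n-TDgtc11, at 53.7%, 50.2% and 41.9%. n-TRtcg3 (4 cytosines) read 54.3%, 51.0% and 55.7% in Control and 54.8%, 52.0% and 53.8% in CSDS, so the groups overlapped closely. n-TIaat10 (5 cytosines) read 47.5%, 52.6% and 50.5% in Control and 51.1%, 36.5% and 42.0% in CSDS. n-TDgtc11 (6 cytosines) read 41.5%, 41.7% and 42.7% in Control and 40.7%, 34.6% and 34.8% in CSDS. Over strand-concordant cytosines, 21 tRNA windows were measured, with medians of 9.86% (Control) and 6.02% (CSDS), where all 29 had a Control median of 22.4%. Of the 29 windows, 28 were lower in CSDS and 14 had non-overlapping groups, with a median difference of -4.21 points, beside the 32.5% of all windows given above. Corrected, the median difference was -1.37 points.

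**Figure D4:**
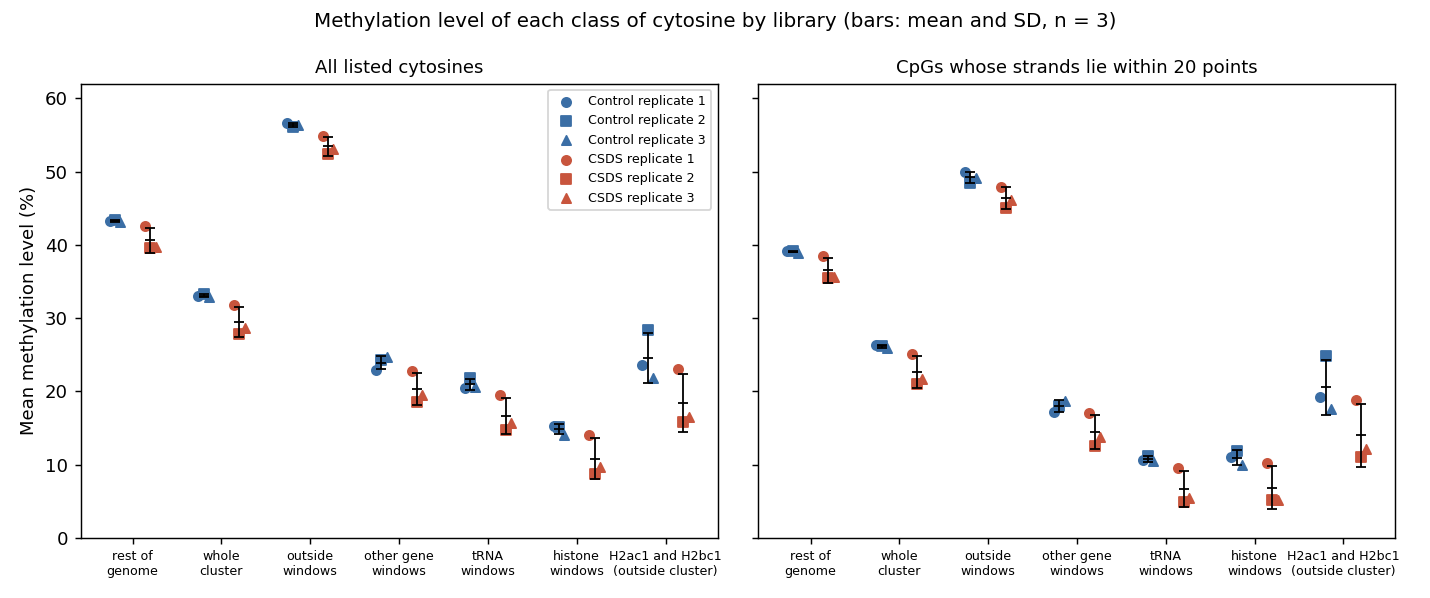
Mean level in percent (y axis) of each class of cytosine (x axis) in each library, over all listed cytosines (left) and over strand-concordant CpGs (right). Blue symbols are Control and red CSDS, and bars give the mean and SD of 3 libraries. In the plotted classes of the cluster CSDS replicates 2 and 3 lie below the 3 Control libraries and CSDS replicate 1 lies nearest to Control. Control tRNA windows are at 20.9% on the left and 10.7% on the right, and histone windows at 14.8% and 10.9%.

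Of the other genes, none of the 75 vomeronasal genes and pseudogenes and neither of the 2 butyrophilin genes had a measured window. The high levels of the middle block were thus read outside these windows. Whether they lie within or between genes was not examined. Both zinc finger genes were measured. Zfp322a (90 cytosines) read 15.2%, 17.3% and 19.1% in Control and 14.8%, 9.75% and 10.6% in CSDS, with no overlap. Zfp184 (29 cytosines) read 18.9%, 16.8% and 18.995% in Control and 17.4%, 12.002% and 11.4% in CSDS, and CSDS replicate 1 lay within the Control range. Among the 11 other measured genes the lowest were the H2A pseudogene H2ac14 at 10.1%, Abt1, which encodes a nucleolar protein, at 12.4%, and Gm46404 at 13.8%. The highest were Gm11307, Gm33387 and Gm22452, at 95.5%, 90.0% and 87.9%. Gm33387 and Gm22452 had higher means in CSDS, by 1.82 and 3.19 points, with overlapping groups. Gm46404 (64 cytosines) shares its cytosines with the valine tRNA gene n-TVcac9 and read 13.8%, 14.3% and 13.3% in Control and 11.6%, 7.73% and 8.32% in CSDS (unadjusted quasi-binomial p = 0.00827).

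Tested one by one, nothing in the cluster was called. In the quasi-binomial test, whose dispersion was moderated by limma, with Benjamini-Hochberg adjustment over the whole genome, 0 of 135 tiles, 0 of 68 gene windows and 0 of 1608 cytosines passed an adjusted p of 0.05 with a difference of 10 points, and the background was 0% for each. The lowest adjusted p among the cluster's tiles was 0.174. In all, 119 of 135 tiles had a lower mean in CSDS, against 73.7% of all tiles. At an unadjusted p under 0.05, 34 of 135 tiles were lower in CSDS and 0 higher, against 15.2% and 0.392% of all tiles. For gene windows it was 14 of 68 lower, against 35.4% of all windows, and for cytosines 202 of 1608 lower, against 9.8%, and 10 higher, against 1.03%. All CSDS libraries lay below all Control libraries in 31 of 135 tiles, against 15.7% of all tiles, and above them in 0, against 1.8%. Of the gene windows 64 of 68 had a lower mean, against 92.8%, and 21 of 68 had no overlap in that direction, against 32.5%. Corrected for the mitochondrial share, 12 of 135 tiles had CSDS below Control without overlap, against 7.67%. Over strand-concordant tiles it was 27 of 83, against 16.3%, and with both changes 4 of 83, against 6.83%. limma on logit values called 0 of the tiles and 0 of the windows as well, with 13 of 135 tiles and 20 of 68 windows at an unadjusted p under 0.05 in either direction, against 9.15% and 28.6% of all.

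Among tiles whose groups did not overlap, the one of smallest p lies 251 bp from the serine tRNA gene n-TSgct5, at chr13:22051001-22051500. Its 16 cytosines read 15.1%, 19.1% and 8.91% in Control and 7.05%, 2.96% and 3.71% in CSDS, a difference of -9.78 points (unadjusted p = 0.000882, adjusted p = 0.174 by the quasi-binomial test with limma's moderation). CSDS replicate 1 alone was at -7.30 points from the Control mean. This tile was not measured over strand-concordant cytosines, so its difference could not be recomputed there. The tile over H1f5, chr13:21780501-21781000 with 20 cytosines, read 20.3%, 20.1% and 17.0% in Control and 16.7%, 14.3% and 12.6% in CSDS. A tile in n-TVcac9, chr13:23446001-23446500 with 9 cytosines, read 19.3%, 10.7% and 9.80% in Control and 6.13%, 5.14% and 5.81% in CSDS. The 5 tiles described here were picked from those whose groups did not overlap. That all 3 CSDS libraries lay below the lowest Control library follows from this choice. The tile 69 bp from n-TLcag10, chr13:23453501-23454000, went from 17.3% ± 0.368 to 13.8% ± 0.588, and that in 4930586N03Rik, chr13:23317501-23318000, from 22.4% ± 0.884 to 17.3% ± 1.30 (SD, n = 3). Differences of these 5 tiles after correction ran from -6.90 points (near n-TSgct5) to -0.43 points (near n-TLcag10).

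Some tiles varied more within Control than any of the 135 differed between groups, where the largest difference was 12.7 points in size. The widest Control range was in a tile 1110 bp from Vmn1r213, chr13:23013501-23014000, whose 3 cytosines read 75.8%, 68.0% and 49.9% in Control. A tile near n-TAagc13, chr13:23431501-23432000, read 5.15%, 22.1% and 1.74%. The tile over H4c9, chr13:22041001-22041500, holds the cytosines of the H4c9 window and had a Control range of 19.05 points. Without CSDS replicate 1, the library nearest to Control, this tile and that near n-TSgct5 passed both thresholds (differences of -15.5 and -11.02 points, adjusted p = 0.00844 and 0.00016 by the quasi-binomial test with limma), as did the windows of H4c9 and n-TSgct5. That is 2 of 135 tiles and 2 of 68 windows, against 1.42% and 1.76% genome-wide under the same setting. The H4c9 tile includes a CCGG cytosine on the - strand at base 22041381, at a coverage of 21 to 36 reads. It read 85.7%, 85.7% and 78.3% in Control and 71.4%, 30.6% and 22.6% in CSDS. Its share in the tile's difference was not tested.

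Among single cytosines whose groups did not overlap, the lowest p belonged to one on the - strand at base 23368931. It lies within the lncRNA gene 4930586N03Rik near Zfp322a. It read 75.0%, 87.8% and 83.6% in Control and 56.7%, 37.3% and 46.3% in CSDS. The difference was -35.4 points (adjusted p = 0.122 by the quasi-binomial test with limma), and CSDS replicate 1 alone was at -25.5 points. The partner of this cytosine on the other strand differed from it by over 20 points. The Zfp184 promoter cytosine shown above was the third in this order, at -27.5 points, and is in a CCGG whose strands disagree. The second, on the - strand at base 21780213 in H1f5, is strand-concordant. It read 12.9%, 15.5% and 10.1% in Control and 0% in all 3 CSDS libraries, at a coverage of 62 to 87 reads. In the other direction the smallest p, again among cytosines without overlap, was at base 23762275 in H3c1. There Control read 0%, 0% and 5.88% and CSDS 23.5%, 25% and 28.6%. Coverage was only 14 to 36 reads, with 1 strand listed (adjusted p = 0.278 by the quasi-binomial test with limma). The next were at bases 22549620 and 22662355, in the vomeronasal stretch, with differences of 17.2 and 11.7 points, each listed on 1 strand.

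Genes that serve histones elsewhere in the genome were examined by list. Of 30 histone genes outside the cluster, 22 were measured, with medians of 13.6% in Control and 10.4% in CSDS. All 22 were lower in CSDS, 13 without overlap, 10 at an unadjusted p under 0.05 and 0 called. Of 13 genes of histone supply, such as Npat, the activator of histone transcription, Slbp, which binds histone mRNA ends, and the chaperones Asf1a and Nasp, 12 were measured, all lower, 5 without overlap, 6 at an unadjusted p under 0.05 and 0 called, with medians of 15.4% and 10.4%. Npat read 12.3% in Control and 8.43% in CSDS. Of 9 genes of histone replacement in spermatids 7 were measured, 6 lower and 1 higher, 3 without overlap, 2 at an unadjusted p under 0.05 and 0 called, with medians of 19.4% and 17.2%. Prm1, a protamine gene, was highly methylated at 91.0% and 87.0%, and Tnp1, a transition protein gene, read 28.2% and 24.8%. Of all gene windows 92.8% were lower, 32.5% without overlap and 35.4% lower at that p. The median difference over all 19645 gene windows was -3.28 points, and those of the 3 lists were -3.54, -4.28 and -3.39 points.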

How the data were processed

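Libraries were made from genomic DNA of male germ cells with the Zymo-Seq RRBS kit, per the labels. The submitters' processing notes name Trim Galore 0.5.0, Bismark 0.20.0 and the build GRCm38. Per the file headers, the deposited tables hold for each cytosine its read count and the percent of reads showing C or T. No listed cytosine has a coverage under 10. Conversion rate, duplicates and restriction enzyme are not given in the sources used here. Reads have no stated molecular identifiers, so counts are not molecules.

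Methylated counts were recovered as percent times coverage. Cytosines listed in all 6 libraries were used, strands apart, without the top 0.1% of coverage. Levels are means over cytosines. Group means were compared by exact two-sided permutation, within-library gaps by exact sign flips. Tiles, windows and cytosines were fitted by a quasi-binomial logistic model (limma 3.58.1 squeezeVar, dispersion at least 1, F test, Benjamini-Hochberg over the whole genome) with calls at 10 points or more and an adjusted p under 0.05. This test was also tested on simulated data. Windows span 500 bp either side of the RefSeq start. A gene under 2 kb without one takes its extent and 500 bp each side, a longer one its end with more cytosines. Correction divided the unmethylated share by 1 minus the library's median over 27 mitochondrial cytosines. The correlation of deviations between same-numbered libraries was -0.0414, -0.0484 and 0.00302, so no pairing by number was seen. With 3 libraries per group these values cannot exclude a pairing.

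The members, the gene lists (germline, Sertoli, Leydig, immune, histone elsewhere, supply, replacement) and the naming rule were chosen with earlier results of these data known. The rule names linker and testis histone genes, the 3 highest and 3 lowest in Control of each family, windows, tiles and cytosines of smallest p or largest difference without overlap, and tiles of widest Control range. Alternatives were coverage minimum 20, no cap, summed reads, merged strands, 1 kb windows, limma on logit values (pseudocount 1), tiles of 5 cytosines, a replicate block and each library left out. The strand-concordant set and CSDS replicate 1 alone were added after seeing the data.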

Additional observations from a re-analysis of the deposited data

How the results depend on the processing

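Of the recomputed main results, 130 values kept their direction and side of the threshold, or their count of calls. Another 12 were weaker, 5 moved and 4 reversed. For group differences the exact permutation p cannot fall under 0.1, so their side of 0.05 was fixed beforehand. Kept values could still shrink. The cluster's difference went from -3.62 to -1.13 points and that of histone windows from -4.02 to -0.817 points with the mitochondrial correction. The change of the gap between the cluster and the rest of the genome turned to 0.564 points with reads summed over cytosines. The change of the gap between histone windows and other members, -0.549 points, turned to 0.430 with the mitochondrial correction, 0.0458 with strand-concordant CpGs and that correction, and 0.595 for CSDS replicate 1 alone. H1f4 and H1f1 windows turned to 0.766 and 0.352 points with the mitochondrial correction. The cause was not tested. CSDS replicate 1 alone gave -1.27 points for the cluster, -0.828 for histone windows and -1.55 for the testis pair. Leaving out each library in turn, the testis gap ran from 7.77 to 9.03 points and the histone gap from -25.3 to -24.9 points, each with an exact permutation p of 0.0625, the smallest that 5 libraries allow. The cluster's difference ran from -4.80 to -2.84 points and that of histone windows from -5.62 to -3.01 points. Calls went from 0 to 2 tiles and 2 windows without CSDS replicate 1 and stayed at 0 without any other library. Those 2 and 2 depend on the minimum of 10 points. Without it, 42 of 135 tiles and 35 of 68 windows had an adjusted p under 0.05 in that setting. Genome-wide these were 28702 of 162809 tiles and 13959 of 19645 windows. At an unadjusted p under 0.05 in either direction were 64 tiles (47.4%, against 26% of all tiles) and 40 windows (58.8%, against 73.1%) without CSDS replicate 1. Without CSDS replicate 2 they were 20 tiles (14.8%, against 9.76%) and 3 windows (4.41%, against 14.5%), and without CSDS replicate 3 20 tiles (against 9.26%) and 5 windows (7.35%, against 12%).

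With replicate number as a block, no tile, window or cytosine of the cluster was called and the cluster's difference of -3.62 points had an exact sign-flip permutation p of 0.25, the smallest that 3 pairs allow. The block moved windows at an unadjusted p under 0.05 from 14 to 8 of 68 (6951 to 6177 of all 19645) and cytosines from 212 to 88 of 1608 (10.8% to 5.04% of all). No shared deviation of same-numbered libraries was seen, which does not exclude a pairing.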
